A study of Canis lupus familiaris with 33 samples.

Results

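The genes described here are those of T cells and cytotoxic lymphocytes in canine invasive urothelial carcinoma (iUC), a bladder cancer of pet dogs. They were chosen by symbol from a list of 37 genes of the T-cell receptor complex, its signaling cascade, T-cell surface receptors, lineage transcription factors, cytotoxic granules and leukocyte motility. The expression table held 25096 genes, of which 12202 carried a symbol, and 34 of the 37 were found. CD247, the zeta chain of the receptor complex, NKG7, a granule membrane protein, and PTPRCAP, a partner of CD45, had no row under their symbols and were not analysed here. RNA was sequenced from 29 high-grade tumors, each from a different treatment-naive dog, and from 4 samples of normal bladder mucosa (A to D). The study describes the tumors as cystoscopic biopsies, elsewhere as mostly so, and as high in epithelial cellularity. For the normals, the urothelial layer was dissected off the bladders of dogs euthanized for other diseases. Age, sex and breed were not restricted and are not given in the sample labels. All 33 libraries were made from total RNA after removal of ribosomal RNA and run in 1 batch. Each value is a log2 normalized expression minus the median of that gene over the 33 samples, so 0 is the middle sample, 1 is a doubling, and values describe differences between samples and not the abundance of one gene against another.

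T cells recognize peptides through a receptor whose antigen-binding chains are carried to the surface by the CD3 chains. On engagement, the kinase LCK phosphorylates the CD3 chains, ZAP70 binds them and phosphorylates the adaptor LAT, and further adaptors and kinases pass the signal on. Cytotoxic T cells and natural killer (NK) cells kill by releasing granules that hold perforin, which opens the target membrane, and granzymes, proteases that start cell death inside the target. TBX21 (T-bet) and EOMES are the transcription factors that drive this cytotoxic program. In bladder cancer, T cells lie among the tumor cells and in the stroma, and their number varies widely between tumors. In bulk tissue, fewer cells of a type and less RNA per cell cannot be told apart.

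The normals and tumors differed in more than these genes. Between 755 and 1019 genes stood at their shared lowest value in a normal, against 3699 to 8175 in a tumor. Of 140 olfactory receptor genes, which bladder tissue is not known to use, 100% were above their lowest value in each normal, against 4.29% to 92.1% in the tumors (median 17.9%). The mean of 5 smooth muscle genes lay between 4.94 and 6.97 in the normals and between -1.28 and 3.89 in the tumors, and all 5 were called lower in tumors. The epithelial marker EPCAM was 2.18 ± 0.36 (SE) higher in the tumors on the log2 scale, and 6 of 9 epithelial genes were called higher. These differences cannot be told apart from the comparison of normals with tumors.

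Tumors were first compared with normals, to ask which genes of the group were gained or lost in cancer. Of the 34 genes, 8 were lower in tumors, 1 was higher and 25 were not called, with limma across 24471 genes, where a call needed a Benjamini-Hochberg adjusted p no larger than 0.05 together with a 2-fold difference. Of all genes tested, 45.8% were called lower and 10.7% higher, so the lower calls were a smaller share of these genes than of the transcriptome. They were also a smaller share than among the 18418 genes above their lowest value in at least 17 samples, of which 5543 were lower. The genes called lower were THEMIS, PRKCQ and GRAP2 of receptor signaling, TBX21 and EOMES of the lineage factors, PRF1 and GZMA of the granules, and SAMD3. The gene called higher was the chemokine receptor CXCR6. None of the 3 CD3 chains and none of the 4 coreceptors and surface receptors was called in either direction, and none of these 7 had an unadjusted limma p under 0.05. The median log2 fold change of the 34 genes was -0.63, against -0.84 over all genes tested. In the DESeq-normalized table both medians were lower, at -0.92 and -1.11, and 11 of the 34 genes were called lower and 1 higher, beside 12045 lower and 1377 higher of the 24517 genes tested there. The plot of every sample's values shows the normals on the right of most tumors for the 8 lower genes and inside the spread of the tumors for most others.

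**Figure D1:**
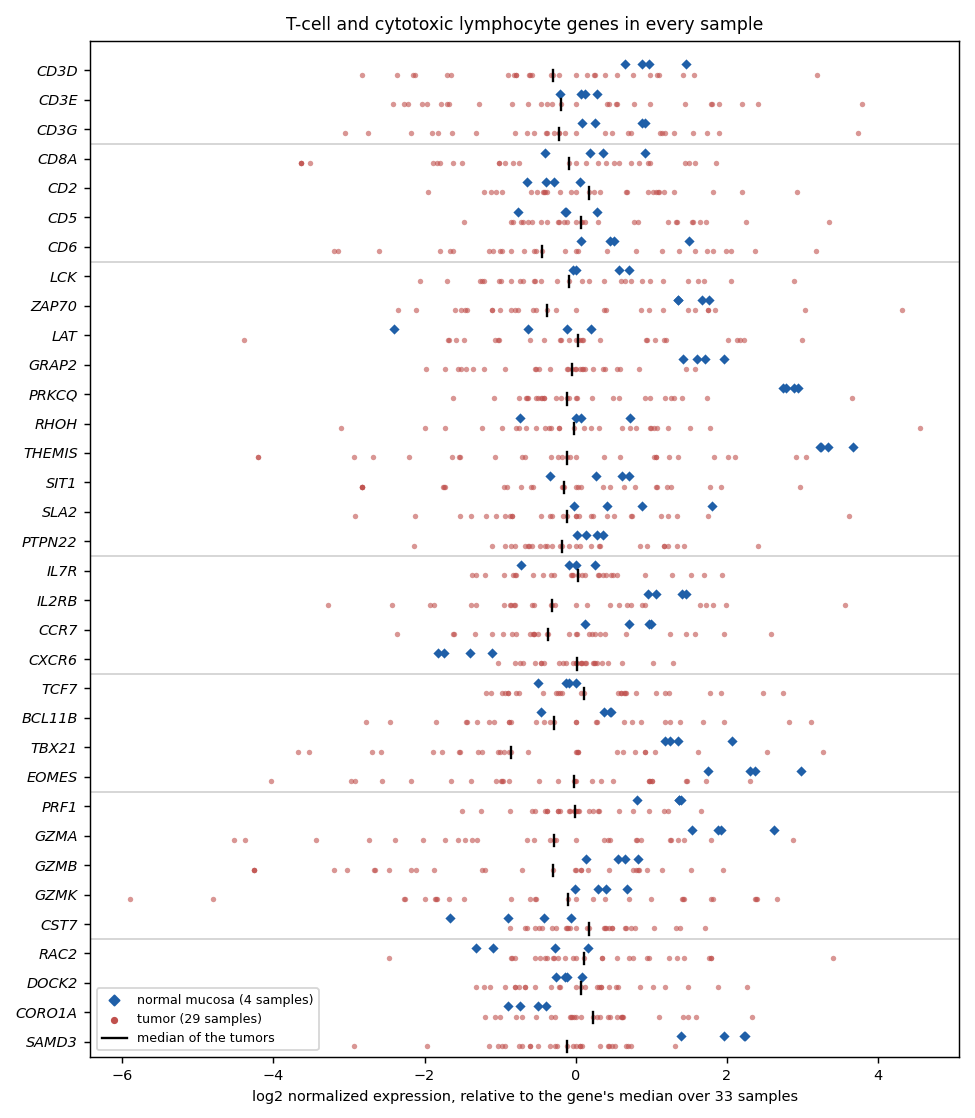
Log2 normalized expression of the 34 genes, relative to the gene's median over 33 samples (horizontal axis), in the 4 normals (blue diamonds), the 29 tumors (red points) and the tumor median (black bar), with grey lines between roles. THEMIS and SAMD3 were higher in every normal than in every tumor, and CXCR6 was lower in every normal than in every tumor.

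The CD3 chains form the invariant part of the T-cell receptor and are made by all T cells. CD3E (ENSCAFG00000012802), the chain used below as the measure of T cells, stood at -0.21, 0.29, 0.12 and 0.07 in normals A, B, C and D. Its tumors ran from -2.42 in tumor 7_733858 through a median of -0.20 to 3.79 in tumor Da6. The normals sat in a narrow band inside the tumor range, with 13 tumors above all of them and 14 below. The log2 fold change was -0.11 ± 0.80 (SE; adjusted p = 0.912 by limma), with a 95% confidence interval from -1.74 to 1.53, which leaves room for a change of more than 2-fold either way. CD3G had normals at 0.91, 0.26, 0.09 and 0.87 and tumors from -3.06 to 3.73 (median -0.22). CD3D stood at 0.97, 0.87, 0.66 and 1.46 in the normals and from -2.82 to 3.19 (median -0.30) in the tumors. For CD3D, 22 of 29 tumors were below every normal and 2 above. Its log2 fold change of -1.23 ± 0.66 (SE) was not called with all samples (limma adjusted p = 0.0922), and was called at -1.36 (adjusted p = 0.0378) without tumor Da6, and at -1.53 (adjusted p = 0.0403) in the DESeq-normalized table. RefSeq places CD3G, CD3D and CD3E next to each other in the dog genome.

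Of the surface receptors, CD8A is the coreceptor of cytotoxic T cells, CD2 an adhesion receptor of T and NK cells, and CD5 and CD6 are related receptors that tune T-cell activation. CD8A was at 0.19, 0.36, -0.40 and 0.92 in the normals and ran from -3.63 to 1.86 (median -0.09) in the tumors, 2 of which were at its shared lowest value. CD2 and CD5 had fold changes of 0.57 ± 0.55 and 0.56 ± 0.55 (SE) on the log2 scale, and CD6 of -0.74 ± 0.82. In all of these genes the normals lay inside the tumor range, and the log2 fold change of CD8A was -0.82 ± 0.82 (limma adjusted p = 0.374). The coreceptor of helper T cells, CD4, had no row under its symbol and was not analysed here.

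In receptor signaling, 3 of 10 genes were lower, beside 45.8% of all genes, and 7 were not called. THEMIS (ENSCAFG00000001078), an adaptor needed for T-cell development in the thymus, stood at 3.67, 3.23, 3.33 and 3.24 in the normals. In the tumors it ran from -4.21 to 3.05 with a median of -0.12, and 2 tumors were at its shared lowest value. Every tumor was below every normal, though tumor Da6, the highest, came within 0.2 of the lowest normal. The log2 fold change was -3.57 ± 0.93 (SE), or 11.8-fold lower (limma adjusted p = 0.00103), the largest of the group.

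PRKCQ, the protein kinase C of the T-cell synapse, which skeletal muscle also makes, was at 2.89, 2.78, 2.74 and 2.94 in the normals and at -1.62 to 3.65 (median -0.11) in the tumors. Of the tumors, 28 were below every normal and Da6 alone was above them. Its log2 fold change was -2.67 ± 0.52 (SE; limma adjusted p = 3.34e-05). GRAP2 (GADS), which links LAT to the adaptor LCP2, stood at 1.61, 1.71, 1.42 and 1.96 in the normals against -1.99 to 1.58 (median -0.05) in the tumors. The groups overlapped by 2 tumors, with 27 of 29 below every normal, and the log2 fold change was -1.94 ± 0.45 (SE; limma adjusted p = 0.000302). ZAP70 normals lay between 1.35 and 1.76 and its tumors between -2.35 and 4.32, with tumor 20 the highest. Although 22 tumors were below every ZAP70 normal, the fold change of -1.48 ± 0.78 (SE) on the log2 scale was not called (limma adjusted p = 0.0888), and was called at -1.77 (adjusted p = 0.0439) in the DESeq-normalized table.

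The other signaling genes gave log2 fold changes between -0.88 and 0.80. LCK had -0.25 ± 0.60 (SE), and LAT had 0.80 ± 0.78 with the widest spread of normals in the group, from -2.40 in normal B to 0.20 in normal A. Without normal B the LAT value was 0.25. SIT1 and SLA2, adaptors that dampen receptor signaling, had -0.56 ± 0.75 and -0.88 ± 0.64, and PTPN22, a phosphatase that acts against LCK, had -0.16 ± 0.47. RHOH, a small GTPase that brings ZAP70 to the receptor, had 0.07 ± 0.69 after TMM normalization and -0.22 after DESeq normalization.

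Of the cytokine and chemokine receptors, CXCR6 (the receptor for CXCL16 on tissue-resident and effector T cells) was the one gene of the 34 called higher in tumors. It stood at -1.11, -1.39, -1.82 and -1.75 in the normals and at -1.03 to 1.29 (median 0.02) in the tumors. Every tumor was above every normal, by a margin of less than 0.1 for tumor Ja, the lowest. The rise was 1.50 ± 0.27 (SE) on the log2 scale, or 2.83-fold (limma adjusted p = 8.51e-06). Over all genes tested, 7.63% had every tumor above every normal and 28.5% had every tumor below, and of the 34 genes CXCR6 did the first and THEMIS and SAMD3 the second. CXCR6 was also the least variable of the 34 over the tumors, with an SD of 0.514, at percentile 38.0 of the genes tested. IL2RB, the beta chain of the interleukin 2 and 15 receptors, had normals at 0.96, 1.46, 1.06 and 1.40 and tumors from -3.27 to 3.56 (median -0.32). Of the tumors, 24 were below every IL2RB normal and 5 above, and none was in between. Its log2 fold change of -1.34 ± 0.72 (SE) was not called (limma adjusted p = 0.0957), and was called at -1.47 (adjusted p = 0.0415) without tumor Da6 and at -1.64 (adjusted p = 0.0451) in the DESeq-normalized table. CCR7, the lymph node homing receptor of naive and central memory T cells, had -0.82 ± 0.55. IL7R, the receptor that keeps naive and memory T cells alive, had 0.19 ± 0.44, and -0.11 in the DESeq-normalized table.

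Of the 4 lineage factors, 2 were called lower, EOMES and TBX21, a share near the 45.8% of all genes. EOMES was at 2.98, 2.31, 1.76 and 2.37 in the normals and ran from -4.03 to 2.31 (median -0.03) in the tumors. Of the tumors, 28 were below every normal and tumor Po lay among them, and the log2 fold change was -2.71 ± 0.77 (SE; limma adjusted p = 0.00235). TBX21 stood at 1.25, 1.18, 1.36 and 2.07 in the normals and between -3.67 and 3.28 (median -0.86) in the tumors. Only 3 tumors reached the TBX21 normals, among them Da6 and Za above all 4. Its log2 fold change of -1.97 ± 0.81 (SE; limma adjusted p = 0.0295) lost its call without any one of the normals A, B, C or D, at -2.04, -2.07, -2.01 and -1.77 with adjusted p of 0.0544, 0.0505, 0.0568 and 0.0959.

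The other lineage factors were not called. TCF7, a factor of naive and stem-like memory T cells that also acts in Wnt signaling of other cells, had normals between -0.50 and 0.00 and tumors between -1.18 and 2.74 (log2 fold change 0.46 ± 0.53, SE). BCL11B, which commits progenitors to the T lineage and is also made in skin and neurons, had normals between -0.47 and 0.46 and tumors between -2.77 and 3.11 (-0.26 ± 0.72).

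Of the granule genes, 2 of 5 were lower, beside 45.8% of all genes. PRF1 (perforin) was at 1.36, 1.39, 0.82 and 1.37 in the normals and at -1.50 to 1.66 (median -0.01) in the tumors. The PRF1 normals were above 25 of 29 tumors and below Da6, and the log2 fold change was -1.21 ± 0.35 (SE; limma adjusted p = 0.00256). GZMA stood at 2.62, 1.53, 1.92 and 1.89 in the normals against -4.52 to 2.88 (median -0.29) in the tumors, of which 27 were below every normal. GZMA had a log2 fold change of -2.52 ± 0.90 (SE; limma adjusted p = 0.0133), which was -2.31 and not called without normal A (adjusted p = 0.0505). GZMB had normals at 0.56, 0.65, 0.13 and 0.82 and tumors from -4.26, the shared lowest value of 3 tumors, to 1.95 (median -0.30). Its normals were inside the tumor range and above 19 tumors, and the log2 fold change was -1.47 ± 0.92 (SE; limma adjusted p = 0.153). GZMK, the granzyme of less differentiated effector memory cells, ran from -5.90 to 2.66 in the tumors, the widest range of the group, around normals between 0.00 and 0.67 (-0.64 ± 1.03). CST7 (cystatin F), an inhibitor of the cathepsins that activate granzymes, stood at -0.41, -0.89, -1.66 and -0.06 in the normals and from -0.87 to 1.71 (median 0.18) in the tumors. No tumor was below every CST7 normal, and the log2 fold change of 0.98 ± 0.34 (SE; limma adjusted p = 0.0115) missed the 2-fold threshold, which it passed without normal A (1.10) or without normal D (1.22). Without normal C the CST7 value was 0.68 (adjusted p = 0.112), without normal B 0.94 (0.0368), and after DESeq normalization 0.69 (0.0812). Granzymes are a gene family, and reads shared between its members could be split by the counting.

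Of the genes of leukocyte motility, which other leukocytes also make, RAC2 (a GTPase of the actin skeleton), DOCK2 (its exchange factor) and CORO1A (an actin-binding protein) had log2 fold changes of 0.97 ± 0.57, 0.18 ± 0.45 and 0.86 ± 0.41 (SE), none called. The DOCK2 value was -0.12 in the DESeq-normalized table. SAMD3, a gene of uncertain function found in cytotoxic lymphocytes, was at 2.22, 1.96, 1.39 and 2.24 in the normals and at -2.94 to 1.31 (median -0.12) in the tumors. All tumors were below all normals for SAMD3, with tumor 16 the nearest, and the log2 fold change was -2.21 ± 0.44 (SE; limma adjusted p = 3.59e-05).

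When the CD3E value of each sample was added to the fit, so that tumors and normals of equal CD3E were compared, the 8 lower genes were again called lower and CXCR6 higher. This alternative, chosen after seeing the data, called 3 further genes lower: CD3D (-1.16 ± 0.31, SE; limma adjusted p = 0.00149), ZAP70 (-1.40 ± 0.51; 0.0162) and IL2RB (-1.26 ± 0.37; 0.00295). RAC2 was called higher at 1.03 ± 0.37 (adjusted p = 0.014). Of 24470 genes tested in this fit, 45.9% were called lower and 10.7% higher, so the 11 lower calls among 33 genes were again no larger a share than over all genes. The fold change of THEMIS was then -3.46, with a standard error of 0.49 in place of 0.93.

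**Figure D2:**
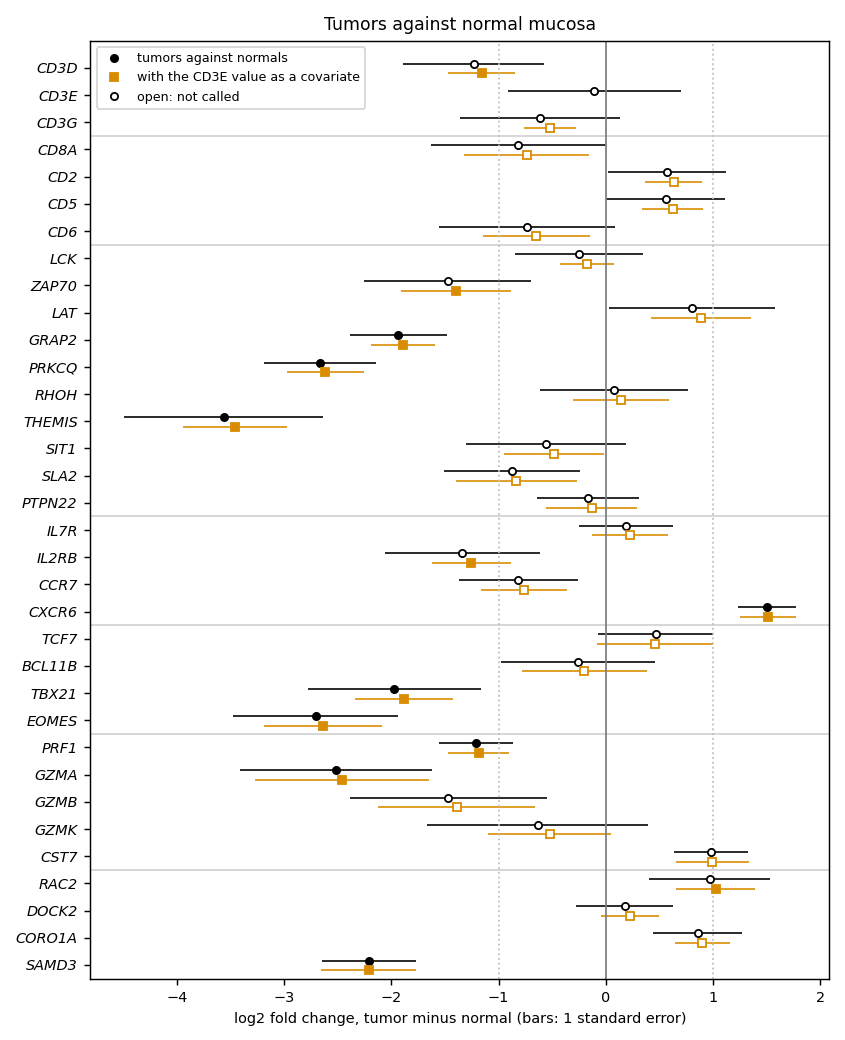
Log2 fold change of each gene, tumor minus normal (horizontal axis), with 1 standard error, from the comparison of tumors with normals (black circles) and from the fit with the CD3E value as a covariate (orange squares), where filled symbols are called and dotted lines mark 2-fold. THEMIS lies farthest to the left at -3.57, CXCR6 is called on the right at 1.50, and the error bars of CD3D, ZAP70 and IL2RB are shorter with the covariate.

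A pair of differences asked whether one gene moved relative to another of the same cells. GZMB minus CD3E was 0.78, 0.36, 0.01 and 0.76 in normals A, B, C and D and ran from -3.80 to 2.46 (median -0.70) in the tumors. Tumors minus normals was -1.36 on the log2 scale (exact permutation test over 40920 assignments, two-sided p = 0.0847, 0.129 after adjustment over the 2 pairs). CD3E minus PTPRC, the T-cell chain relative to the pan-leukocyte gene for CD45, was -0.11, 0.89, 0.67 and 0.91 in the normals and -1.97 to 1.63 (median -0.20) in the tumors. Tumors minus normals was -0.80 (exact permutation p = 0.129, also 0.129 after adjustment). For both pairs the normals lay inside the tumor range.

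Other genes of T and NK cells were set beside the group from a list of 49, of which 29 were tested. None was called higher and 7 were lower, a smaller share than the 45.8% of all genes, with a list median of -0.44 against -0.84 over all genes, and 2 (CTSW and GATA3) were higher at an unadjusted limma p under 0.05 with changes short of 2-fold. IFNG, the interferon of cytotoxic and type 1 helper cells, had a log2 fold change of -4.95 ± 0.76 (SE; limma adjusted p = 6.76e-07). NCR1, an activating receptor of NK cells, had -3.41 ± 0.60 (adjusted p = 6.98e-06), and CRTAM, a receptor of activated cytotoxic cells, had -2.36 ± 0.41 (adjusted p = 6.08e-06). Of 6 pan-leukocyte genes 2 were called higher, LCP1 by 1.90 ± 0.37 and LAPTM5 by 1.01 ± 0.41, and none lower, also at an unadjusted limma p under 0.05. Of 13 B-cell genes 4 were lower and none higher, also at an unadjusted limma p under 0.05, with FCRL1 at -3.53 ± 0.79, PAX5 at -3.40 ± 0.80, MS4A1 at -2.96 ± 1.29 and BLK at -2.62 ± 0.87. Of 12 myeloid genes CD68 was called higher (1.95 ± 0.34) and ITGAM lower (-1.47 ± 0.47).

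The genes were next compared among the 29 tumors. Tumor Da6 had the highest value of 22 of the 34 genes and was among the 5 highest tumors in 30. The tumors Po, 4, 8_734_223 and Za were among the 5 highest in 25, 24, 22 and 21 genes. At the other end, tumor Mis was the lowest in 10 genes and among the 5 lowest in 20, and tumor 12 was among the 5 lowest in 17. The granzymes and THEMIS were among the more variable genes of the transcriptome, with SDs over the tumors of 2.11 for GZMK (percentile 98.4 of the genes tested), 1.90 for THEMIS (97.5), 1.86 for GZMB (97.2) and 1.83 for GZMA (97.1). CD3E had an SD of 1.64 (percentile 95.1), against 0.695 for PRF1 (54.1).

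**Figure D3:**
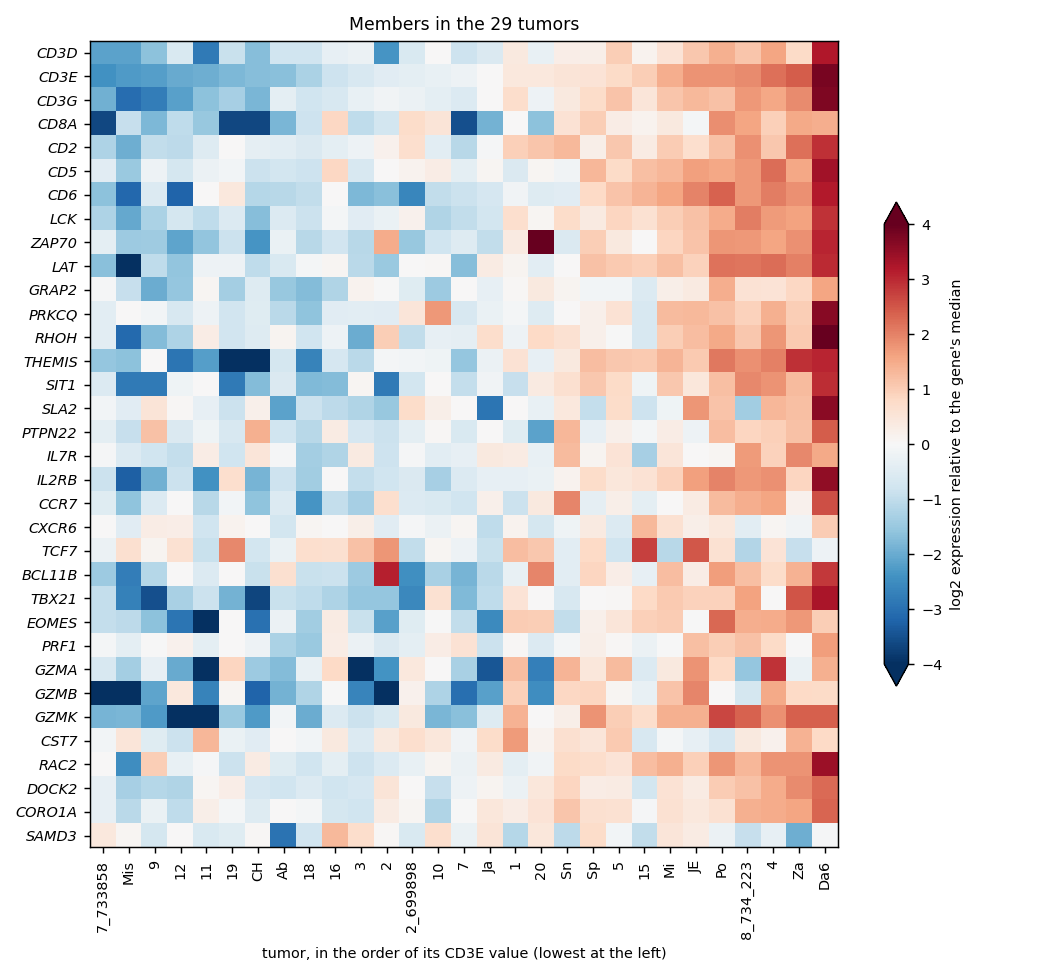
Log2 expression relative to the gene's median (color, blue low and red high) of the 34 genes (rows, by role) in the 29 tumors (columns, in the order of CD3E). Most rows turn from blue to red from left to right with CD3E, from -2.42 in tumor 7_733858 to 3.79 in tumor Da6, while CXCR6, TCF7, CST7 and SAMD3 do not follow this order.

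Each gene was regressed on CD3E over the tumors with limma, to ask which members rise together with this T-cell chain. Of 33 genes other than CD3E, 26 rose with CD3E and none fell by the same adjusted threshold (29 and none at an unadjusted p under 0.05), against 2.59% of all genes rising and 0.311% falling. The median Pearson r of the 33 genes with CD3E was 0.775, and of all genes tested 0.0224. Among the 34 genes, the 561 pairs had a median r of 0.582, and 510 were above 0. These are correlations over bulk tumors and not over cells.

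The highest correlations were those of CD3G and LCK. CD3G had r = 0.959 (Spearman's rho = 0.968, permutation p = 1e-05 for both, the smallest that 100000 permutations can give; limma adjusted p = 1.3e-12). Leaving out Da6 and Za, the tumors farthest from the CD3E median, gave r = 0.943. LCK followed with r = 0.926 (rho = 0.901), CD3D with 0.893 (0.901), CD2 with 0.890 (0.872), CD5 with 0.881 (0.839), IL2RB with 0.870 (0.867) and THEMIS with 0.861 (0.880), all at the same permutation p. GZMK reached 0.842, LAT 0.840, TBX21 0.838, DOCK2 0.820, CD6 0.816, CORO1A 0.811, SIT1 0.800, RAC2 0.793, RHOH 0.786, GRAP2 0.775, ZAP70 0.762 and PRKCQ 0.745. Of the 8 genes lower in tumors, 6 rose with CD3E, and GZMA and SAMD3 were not called.

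The cytotoxic genes ranged widely in how closely they followed CD3E. GZMK rose with CD3E at r = 0.842 (rho = 0.915), CD8A at 0.723 (0.736), EOMES at 0.720 (0.768), GZMB at 0.636 (0.628) and PRF1 at 0.616 (0.497). GZMA had r = 0.468 (rho = 0.487, permutation p = 0.0107 and 0.00808) and was not called over all genes (limma adjusted p = 0.153). Within the cytotoxic genes, GZMA and GZMB had r = 0.713 (rho = 0.761), GZMA and GZMK 0.567 (0.543), CD8A and GZMK 0.658 (0.762), CD8A and TBX21 0.663 (0.650), TBX21 and EOMES 0.679 (0.749) and GZMB and PRF1 0.466 (0.523). The permutation p of these pairs, adjusted over the 14 pairs computed, lay between 2.8e-05 and 0.0136, and without the 2 farthest tumors r was 0.722, 0.470, 0.646, 0.638, 0.656 and 0.432 in the same order. The test of a difference between 2 of these correlations was not run.

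**Figure D4:**
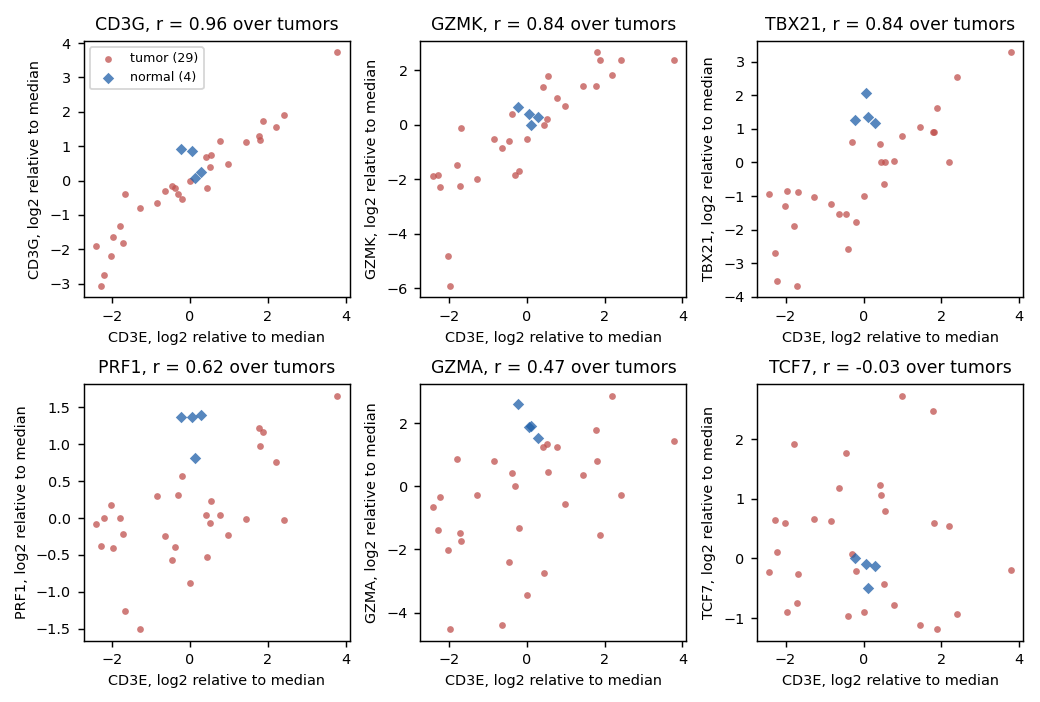
Log2 expression relative to the median of CD3G, GZMK, TBX21, PRF1, GZMA and TCF7 (vertical axes) against CD3E (horizontal axes) in the 29 tumors (red points) and 4 normals (blue diamonds). CD3G follows CD3E closely (r = 0.959), GZMA loosely (0.468) and TCF7 not visibly (-0.0283), and at the CD3E of the normals the normals of TBX21, PRF1 and GZMA lie above nearly all tumors.

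Of the memory and homing receptors, CCR7 rose with CD3E at r = 0.713 (rho = 0.686) and IL7R at 0.618 (0.590), and of the lineage factors BCL11B rose at 0.610 (0.633). Without tumor Da6, IL7R (r = 0.559), BCL11B (0.533) and PRF1 (0.518) lost their calls, with limma adjusted p of 0.0737, 0.101 and 0.13, and 23 of 33 genes rose. Without Da6 and Za, the most distant from the CD3E median, GZMB lost its call as well (r = 0.617, limma adjusted p = 0.0829). Besides GZMA, 6 genes were not called: SLA2 (r = 0.508), PTPN22 (0.490), CXCR6 (0.345), CST7 (0.253), TCF7 (-0.0283) and SAMD3 (-0.0395). SLA2 and PTPN22 dropped to 0.281 and 0.286 without the 2 tumors farthest from the CD3E median. TCF7, highest in tumors 15 and JE and lowest in tumor 8_734_223, had no relation to CCR7 that the test detected either (r = -0.0884, rho = -0.106, permutation p = 0.646 and 0.58, both unchanged after adjustment over 14 pairs).

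Genes outside the group were ranked by their likeness to CD3E. Among the 10 with the highest r over the 29 tumors were a gene without a symbol (ENSCAFG00000014478, 0.938), the T-cell receptor constant gene TRAC (0.933), the receptor variable genes TRBV16 (0.921) and TRBV3-1 (0.882), the integrin chain ITGAL (0.904), TRAF3IP3 (0.879), the lymphocyte GTPase GIMAP7 (0.873), and 2 more genes without a symbol (0.894 and 0.872). Of the list of other T and NK genes, 19 of 29 rose with CD3E and 1 fell, GATA3 (r = -0.566, limma adjusted p = 0.0454), a factor of type 2 helper T cells that is also a urothelial factor. ARHGAP15, IKZF3, LCP2, CD226 and CD7 had r of 0.864, 0.841, 0.832, 0.830 and 0.821, and CD8B, the partner chain of CD8A, 0.713. NCR1 and CRTAM did not pass (r = 0.169 and 0.331).

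Genes of other leukocytes moved with CD3E too. PTPRC had r = 0.847 with CD3E (rho = 0.823, permutation p = 1e-05 for both, 3.5e-05 and 2.8e-05 after adjustment over 14 pairs), and 5 of 6 pan-leukocyte, 10 of 13 B-cell and 6 of 12 myeloid genes rose with it. CD79A, a chain of the B-cell receptor, reached 0.842. With PTPRC added as a covariate, an alternative chosen after seeing the data, 10 of 24087 genes rose with CD3E (0.0415%) and 1 fell (0.00415%), and 5 of those that rose were members: CD3G (partial r = 0.849), CD3D (0.780), LCK (0.739), THEMIS (0.729) and CD5 (0.700). Among the others were TRBV16 (0.777), TRAC (0.767), TNFRSF25, a receptor of the tumor necrosis factor family on lymphocytes (0.748), and ENSCAFG00000014478 (0.808). IL2RB, CD8A and GZMK had partial r of 0.630, 0.632 and 0.672 and were not called. RAC2, DOCK2 and CORO1A, which leukocytes of many kinds make, were at 0.458, 0.00684 and 0.0520, also not called.

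Epithelial and background measures were set against CD3E in the same way. EPCAM had r = -0.166 (rho = -0.280, permutation p = 0.391 and 0.142, 0.456 and 0.166 after adjustment over 14 pairs), and 2 of 9 epithelial genes fell, CDH1 (E-cadherin) at r = -0.637 and GATA3. None of 5 smooth muscle genes (none at an unadjusted limma p under 0.05) and 1 of 5 endothelial genes, TEK, rose with CD3E. The share of olfactory receptor genes above their lowest value had r = 0.107 with CD3E (rho = 0.125, permutation p = 0.584 and 0.511, 0.629 and 0.55 after adjustment). With that share as a covariate, 26 of 33 genes again rose with CD3E, beside 612 rising and 66 falling of 24088 genes.

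The study divided the tumors into basal and luminal subtypes, terms for a stem-like and a differentiated urothelial state, and asked how immune genes differ between them. The subtype of each tumor was not used here. In its place stood the first principal component of 635 of the genes that the study used for the division, with the sign set so that CDH1 falls. The study's list is longer, and the 34 genes here and any without a row in the table or without variation over the tumors were left out. The study took those genes from a human list that separates basal from luminal cancers. It kept the ones that differed between tumors and normals in these samples. PRF1, GZMA and PRKCQ were among them before removal. The component carried 25.2% of the variance of its genes. It was not a pure measure of a tumor cell state, as all 5 endothelial and 4 of 5 smooth muscle genes rose along it (TEK r = 0.850, TAGLN 0.837), and their part in the results below was not tested.

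Along the component, 12 of the 34 genes rose and none fell (25 and none at an unadjusted p under 0.05), against 4.95% of all genes rising and 1.09% falling with limma. The rise was not particular to these genes. Of the other lists, 11 of 29 other T and NK, 4 of 13 B-cell, 2 of 6 pan-leukocyte and 3 of 12 myeloid genes rose along it, and none fell. GRAP2 rose at r = 0.691 (rho = 0.581, permutation p = 5e-05 and 0.00108; limma adjusted p = 0.00135). RAC2 rose at 0.639, DOCK2 at 0.613, CD5 at 0.604, RHOH at 0.601, PRF1 at 0.594, IL2RB at 0.583, CD6 at 0.560, SIT1 at 0.552, CORO1A at 0.544 and CCR7 at 0.539. CD3E rose at r = 0.551 (rho = 0.497, permutation p = 0.00215 and 0.00676; limma adjusted p = 0.0279), and r remained at 0.556 when the 2 most distant scores were left out. The median r of the 34 genes was 0.480, against 0.0112 over all genes.

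The cytotoxic genes other than PRF1 were not called along the component. GZMA had r = 0.164, GZMB 0.168, CD8A 0.217, EOMES 0.320, GZMK 0.438, TBX21 0.479 and CST7 -0.0508, with limma adjusted p of 0.708, 0.713, 0.594, 0.362, 0.135, 0.0866 and 0.926. CD3G (r = 0.495), LCK (0.497), THEMIS (0.512) and IL7R (0.509) were not called, with adjusted p of 0.0667, 0.0651, 0.0521 and 0.0571. TCF7 was the lowest, at r = -0.241 (rho = -0.390). Without the 2 tumors with the most distant scores, PRF1 lost its call (r = 0.535, limma adjusted p = 0.0671) and LCK (0.551; 0.048), THEMIS (0.552; 0.0466) and IL7R (0.611; 0.0169) gained one, so that 14 of the 34 genes rose. Of all 23981 genes tested in that fit, 890 rose and 131 fell. THEMIS was also called after DESeq normalization (r = 0.521, adjusted p = 0.0451). Single tumors stood apart from the relation of CD3E with the component. The tumors 7_733858 and 7 had scores of 15.4 and 19.0, among the higher ones, with CD3E at -2.42 and -0.20, while Da6, with the highest CD3E, had a score of 11.4.

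**Figure D5:**
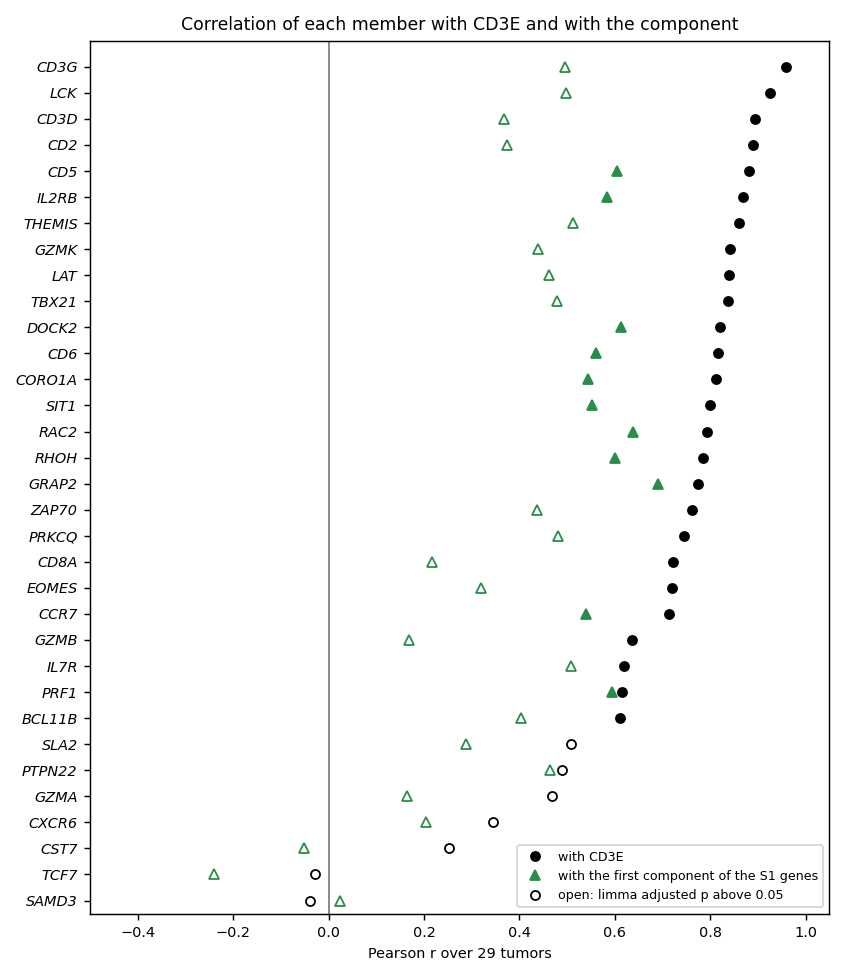
Pearson r over 29 tumors (horizontal axis) of each of 33 genes with CD3E (circles) and with the first component of the study's subtype genes (triangles), in the order of r with CD3E, where filled symbols have a limma adjusted p of at most 0.05. The circles run from 0.959 for CD3G to -0.0395 for SAMD3, and the triangles lie to the left of the circles for all but SAMD3, from 0.691 for GRAP2 to -0.241 for TCF7.

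With CD3E as a covariate, an alternative chosen after seeing the data, none of 33 genes rose or fell with the component at the adjusted limma threshold, against 2.73% of all genes rising and 0.336% falling. Of the 33, GRAP2, RAC2 and PRF1 had an unadjusted p under 0.05. The partial r of GRAP2 was then 0.501 (limma adjusted p = 0.128) and that of RAC2 0.398, and those of CD3D, CD8A, CD2 and GZMB were -0.333, -0.314, -0.306 and -0.283. With each gene of the component scaled to unit SD, 19 of the 34 genes rose, beside 1311 rising and 361 falling of 24089 genes, among them CD3G, LCK, ZAP70, PRKCQ, THEMIS, IL7R and TBX21.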

How the data were processed

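RNA-seq was run on 4 normal bladder mucosa samples and 29 canine iUC tumors. The authors depleted ribosomal RNA, aligned paired-end reads to CanFam 3.1 with COBWeb in Strand NGS 3.1, quantified annotated genes and normalized them by TMM or by DESeq. The deposited tables hold log2 expression centred on each gene's median over the 33 samples. Count models could not be applied to such values, and the depth of each sample is unknown, so the number of samples limits the precision. A lowest value shared by samples (tolerance 1e-06) was read as undetected. The last line of each table, which ends within the line, was left out.

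Groups came from the sample titles. The test had been written for tables that might be linear, and the log2 values were used as they are. Genes above their shared lowest value in at least 4 samples, a filter that the normals alone can pass and that all 34 members passed, were tested in the TMM table with limma 3.58.1 (lmFit, eBayes with a trend) in R 4.3.3, with Benjamini-Hochberg adjustment over all genes. Tumors were regressed on CD3E and on the component, with two-sided permutation p from 100000 resamples in Python 3.11.15. The limma steps were tested on simulated data. The highest r between any 2 libraries was 0.942. Symbols of 34 members were found in a RefSeq table of another dog assembly, used for names and neighbors only.

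The 37 members and the other lists were chosen with earlier results of these data known. All members are named, with the genes of other lists called in the smaller direction, up to 4 examples a list with the largest change, and the 10 genes most like CD3E, of which 1 item is not reported here. Any others were named after their values were seen. Alternatives were the second table of the authors (DESeq), other variance models and filters, no fold threshold, recentred samples, each normal left out, and other anchor genes and covariates. Fits without tumor Da6 or with CD3E or PTPRC as a covariate were chosen after seeing the data. CD8A minus CD4 was planned and not run, since CD4 had no row.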

Additional observations from a re-analysis of the deposited data

Results flagged for a closer look

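Among the 4 normals, 2 of 34 genes had 1 sample farther from the others than Dixon's 95% limit for a gap over the range allows, and chance flags about 1 in 20 groups. BCL11B stood at -0.465 in normal C, against 0.37 to 0.46 in the others. PRF1 stood at 0.815 in normal C, against 1.36 to 1.39.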

How the results depend on the processing

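The count of genes lower in tumors was 8, 6 to 7 with each normal left out, 11 in the DESeq-normalized table, 10 without tumor Da6 and 11 with CD3E as a covariate. The count of genes higher was 1, and 2 with no fold-change threshold, 2 with CD3E as a covariate and 1 to 2 with each normal left out. The count rising with CD3E was 26, and 5 with PTPRC as a covariate. The count rising along the component was 12, 19 with genes scaled to unit SD and 0 with CD3E as a covariate. The cause of these shifts was not tested. Signs turned for the genes below, of which IL7R alone had been called (rising with CD3E). For tumors against normals these were RHOH (-0.22), IL7R (-0.11) and DOCK2 (-0.12) in the DESeq table and RHOH without Da6 (-0.0852). With each normal left out, RHOH lay between -0.18 (without C) and 0.31, and IL7R between -0.00744 (without D) and 0.32. For r with CD3E they were TCF7 (0.0927) and SAMD3 (0.0684) without the 2 farthest tumors, TCF7 without Da6 (0.0105), and IL7R (-0.117), TCF7 (0.333), CST7 (-0.244) and SAMD3 (0.236) with PTPRC as a covariate. For r with the component they were CST7 (0.0998) without the 2 farthest tumors and, with CD3E as a covariate, CD3D (-0.333), CD3G (-0.140), CD8A (-0.314), CD2 (-0.306), LCK (-0.0407), LAT (-0.00334), EOMES (-0.134), GZMA (-0.127), GZMB (-0.283) and GZMK (-0.0564). Of the other values for single genes, 418 fold changes, 260 r with CD3E and 202 r with the component kept their direction and side of the threshold, 12 fold changes and 12 r with the component gained a call, and 5 fold changes, 28 r with CD3E and 12 r with the component lost one. Both pair differences kept their direction and stayed above 0.05 in each alternative. Over all genes, 11206 were lower in tumors, and 5543 when only genes above the lowest value in at least 17 samples were tested; 2615 were higher, and 5603 with no fold-change threshold and 1377 in the DESeq table. With CD3E, 625 genes rose, 207 without the 2 farthest tumors, 348 without Da6 and 10 with PTPRC as a covariate. Along the component 1193 rose, and 658 with CD3E as a covariate. No paired analysis was possible because the normals and the tumors came from different dogs. With 4 normals, the intervals of most fold changes span 0, and values at the shared lowest value show only that a gene was not detected at this depth.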
